A study of Mus musculus with 4 samples.

Results

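The 10 genes described here encode core parts of the mitochondrial protein import machinery: the outer membrane receptors Tomm20, Tomm22 and Tomm70a, the outer membrane channel Tomm40, the inner membrane translocase subunits Timm50, Timm23, Timm17a, Timm17b and Timm44, and the intermembrane space chaperone Timm8a1. They were found by name, through the RefSeq accession of each array probe, and all 10 of the 10 were measured, among 11495 genes measured and 16358 genes with a named probe. Together they had 16 probes, and every one was well above background in HepKO and in WT on 4 of 4 arrays. RNA came from hepatocyte pellets of collagenase-perfused livers of C57BL/6J mice, with no sorting step named, and was compared on 4 two-colour Agilent arrays. HepKO mice carried Pnpt1 fl/fl alleles and Albumin-Cre/wt, in which the albumin promoter drives Cre in hepatocytes, and WT mice carried the same Pnpt1 fl/fl alleles without Cre. Pnpt1 encodes PNPase, an RNA-degrading enzyme of mitochondria. A HepKO and a WT mouse labelled male, aged 12.29 weeks (12.9 weeks in another label), formed 1 pair, and a HepKO and a WT mouse labelled female, aged 4.29 weeks, formed the other. Every pair filled 2 arrays of a single slide, 1 in each dye orientation (replicate 1 with HepKO in Cy5, given first throughout, and replicate 2 with HepKO in Cy3), so n = 2 pairs throughout, and effects of sex, of age and of slide on a difference between pairs cannot be told apart.

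Nearly all mitochondrial proteins are made in the cytosol from nuclear genes and must be carried across the mitochondrial membranes. They dock on the receptors of the TOM complex, cross the outer membrane through the Tomm40 channel, and those with a cleavable targeting signal are then passed to the TIM23 complex, whose motor pulls them into the matrix. Small TIM chaperones escort hydrophobic inner membrane proteins across the intermembrane space, where PNPase itself resides, and hepatocytes are rich in mitochondria that depend on this route.

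Some values of the samples as a whole bear on every result. Xist, the RNA that silences 1 X chromosome in female cells, passed the background test in both genotypes on 2 of 2 arrays for the mice labelled male and 0 of 2 for those labelled female, and Ddx3y, Kdm5d and Eif2s3y on the Y chromosome showed the reverse, against the labelled sexes. The pairs keep their labelled names here, and ratios of HepKO to WT, formed inside a pair, use no sex label. The Pnpt1 probe that stood for the gene had log2 HepKO over WT ratios of 0.31 and 0.058 (male pair), then -0.38 and -0.38 (female pair), and the dimmer probe A_52_P229271 was below 0 on all 4 arrays, from -0.67 to -0.32. Neither passed the test (adjusted p = 0.747 over genes, and 0.0800 over probes for the dimmer one; limma), and the position of either probe relative to the deleted part is not known here. Marker counts are of genes called by limma at an adjusted p below 0.05, which called 12.0% of all genes higher and 3.71% lower. No marker list was tested against these shares. Hepatocyte markers, such as Alb and Ttr, had 0 of 9 measured members changed, with a median log2 ratio of 0.14. Macrophage markers had 7 of 7 higher, with a summed signal of 68900 to 71400 in HepKO and 7640 to 19800 in WT, and cell cycle markers had 7 of 7 higher, with summed signals of 8800 to 11800 and 2280 to 2930. Endothelial markers had 5 of 7 higher (3550 to 3950 in HepKO, 1520 to 2230 in WT), lymphocyte markers 3 of 5 (1050 to 1330 and 352 to 461), stellate markers 2 of 5 (4640 to 5290 and 2430 to 2880) and cholangiocyte markers 1 of 4 (2640 to 6040 and 516 to 552). Of 3 erythroid markers, 1 was higher and 1 lower, with summed signals of 2230 to 10000 in HepKO and 1350 to 8260 in WT. Ms4a1, Epcam, Slc4a1 and Top2a were not well above background on any array in WT. The part of these cell types in the values of the translocase genes was not tested, and in such bulk RNA fewer cells of a type and less RNA per cell cannot be told apart.

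None of the 10 translocase genes passed the test for a difference between HepKO and WT hepatocytes. The limma test, adjusted over all genes at a threshold of 0.05, called 15.7% of the 11495 genes (12.0% higher and 3.71% lower) and 0 of these 10. The share over all genes depended on the processing. Without the filter on dim probes 0 genes were called, and with the 4 arrays entered singly and the pair as a random block 4079 were. At an unadjusted p below 0.05 the same test held 0 of the 10, while 36.4% of all genes passed there. Timm44 (0.0625), Tomm20 (0.0642) and Timm17b (0.0664) lay just above that cutoff (limma). Over the alternatives this count ran from 0 to 4. It was 4 without the filter on dim probes, where 4638 of 16339 genes passed, and 4 with the pair as a random block, where 5319 of 11495 did. The mean log2 ratios of the 10 genes ran from -0.39 (Timm17b) to 0.42 (Tomm20), with 5 above 0 and 5 below. Their median was 0.063, beside 0.083 over all genes, and the median of their absolute values was 0.26, beside 0.32. The smallest absolute log2 change that was called in any gene was 0.69, a 1.61-fold change, and at the median standard error of the 10 genes a value of 0.71 would have been needed. Smaller shifts were therefore not detectable with 2 pairs at that standard error. Genes with a larger one, such as Tomm22 (0.69) and Timm8a1 (0.24), would have needed a larger change.

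**Figure D1:**
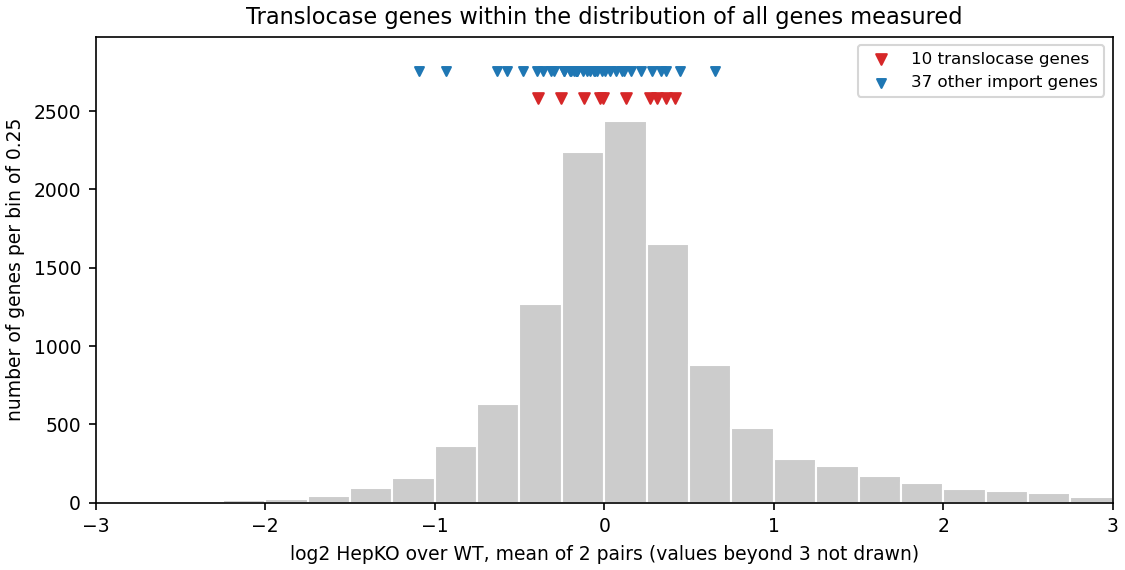
Number of genes (vertical axis) by log2 HepKO over WT, mean of 2 pairs (horizontal axis, bins of 0.25), over the 11495 genes measured, with values beyond 3 not drawn. Red triangles mark the 10 translocase genes, which lie between -0.39 and 0.42, and blue triangles the 37 other import genes, which lie between -1.09 and 0.65.

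Within this narrow range the genes did not all lie on 1 side of 0. Tomm20, Timm44, Timm50 and Timm17a were above 0 on all 4 arrays, as were 39.4% of all genes. Timm17b was below 0 on all 4 arrays, as were 25.0% of all genes. Tomm22 and Timm8a1 had both arrays of the male pair below 0 and both arrays of the female pair above 0, a split between the pairs in either direction that 8.46% of all genes showed. Tomm70a, Tomm40 and Timm23 had values on both sides of 0 within a pair or between arrays.

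**Figure D2:**
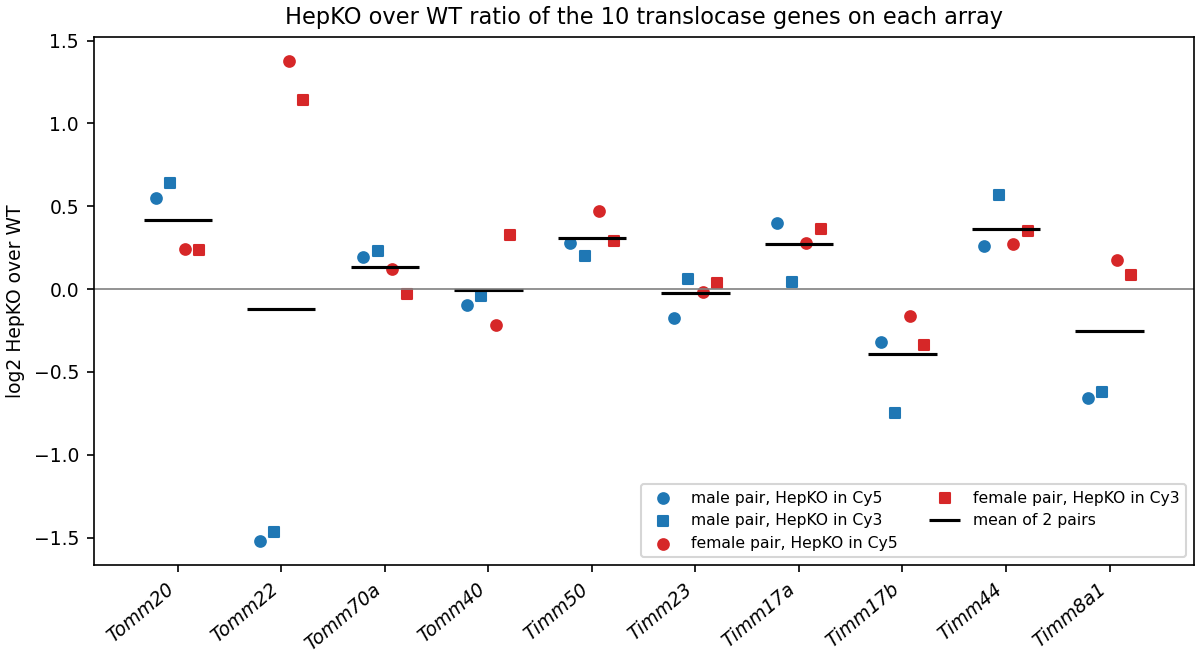
Log2 HepKO over WT (vertical axis) of each translocase gene on each of the 4 arrays. Blue stands for the male pair and red for the female pair, circles for arrays with HepKO in Cy5 and squares for arrays with HepKO in Cy3, and black lines for the mean of the 2 pairs. Tomm22 spans from -1.52 to 1.38, and in the other 9 genes every array lies between -0.75 and 0.64.

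The 3 genes below are the ones the description turns on, and the 250 bases before their annotated start are shown to give their regulatory context. Tomm22 differed most between the pairs, and Timm17a and Timm17b are alternative forms of 1 subunit with ratios on opposite sides of 0. The sequences are from RefSeq, build GRCm38.p6, written 5′ to 3′ on the strand of the gene: Tomm22 at chr15:79670618-79670867 on the plus strand, Timm17a at chr1:135313738-135313987 on the minus strand and Timm17b at chrX:7899086-7899335 on the plus strand. Capitals mark matches, on either strand, to 5 short promoter motifs, which are the NRF1 core GCATGCG, the ETS motif CCGGAAG that GABPA binds, the E-box CACGTG, the NF-Y motif CCAAT and the GC box GGGCGG that SP1 binds.
Tomm22: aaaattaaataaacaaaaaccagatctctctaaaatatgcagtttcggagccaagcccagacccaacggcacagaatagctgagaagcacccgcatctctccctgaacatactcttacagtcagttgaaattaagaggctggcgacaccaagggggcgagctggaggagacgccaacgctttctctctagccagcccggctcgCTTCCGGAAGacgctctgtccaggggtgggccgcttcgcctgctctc
Timm17a: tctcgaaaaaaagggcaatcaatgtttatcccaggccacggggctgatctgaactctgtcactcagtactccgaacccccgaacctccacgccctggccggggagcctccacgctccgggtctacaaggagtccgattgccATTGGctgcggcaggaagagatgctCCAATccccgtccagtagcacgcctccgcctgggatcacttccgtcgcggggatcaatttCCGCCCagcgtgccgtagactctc
Timm17b: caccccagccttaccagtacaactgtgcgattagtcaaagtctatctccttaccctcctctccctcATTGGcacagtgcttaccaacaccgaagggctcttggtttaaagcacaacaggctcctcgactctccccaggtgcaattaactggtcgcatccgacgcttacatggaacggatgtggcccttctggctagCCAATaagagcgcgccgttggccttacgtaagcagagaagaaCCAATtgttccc
The Tomm22 window held the ETS motif on both strands, the 2 matches overlapping each other in 1 run of capitals, and none of the other motifs. The Timm17a window held 2 NF-Y matches and 1 GC box, and the Timm17b window held 3 NF-Y matches and no GC box. All 10 genes had a promoter in the table. The ETS motif was found for 3 of the 10 (Tomm22, Tomm70a and Timm23), against 6.91% of all 32851 promoter windows, the NF-Y motif for 5 of 10 against 33.8%, and the GC box for 6 of 10 against 32.7%. The E-box was found for Tomm20 and Timm8a1, 2 of 10 against 6.02%, and the NRF1 core for 0 of 10 against 3.02%. No matches to different motifs overlapped in these 10 windows. The 32851 windows belong to 27025 genes, with more than 1 window for some, and were not limited to genes measured here. Enrichment of a motif was not tested. A match is a run of letters and does not show that a factor binds there.

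Among the TOM receptors, Tomm20, which recognises targeting signals at the amino end of incoming proteins, had the highest mean. Its log2 ratios were 0.55 and 0.64 (male pair), then 0.24 and 0.24 (female pair), and its mean was 0.42 ± 0.17 (moderated SE, n = 2 pairs; adjusted p = 0.160, limma). Both dyes gave nearly the same value within each pair, and the HepKO mouse was above its WT partner in both pairs. The 95% interval of the mean ran from -0.039 to 0.88. The normalised log2 signal was 12.33 in the HepKO and 11.73 in the WT mouse of the male pair, and the female pair had 11.92 and 11.68. The WT mice differed by 0.046, and both HepKO mice lay above both WT mice. Tomm20 was the 1 member called when the 4 arrays were entered singly with the pair as a random block (adjusted p = 0.0455), a fit that counts the 2 arrays of the same RNA extracts as separate samples in part and called 4079 genes.

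Tomm22, the central receptor that also holds the TOM complex together, showed the widest spread of the 10. Its log2 HepKO over WT ratios were -1.52 and -1.47 (male pair), then 1.38 and 1.14 (female pair). HepKO was lower in 1 pair and higher in the other, with both dye orientations alike in each. The mean of -0.12 ± 0.69 (adjusted p = 0.919, limma, n = 2 pairs) has an interval from -2.02 to 1.78 and averages these opposite values. The normalised log2 signal of the same probe was 10.70 in the male WT mouse and 10.36 in the female HepKO mouse, against 9.21 in the male HepKO mouse and 9.10 in the female WT mouse. The 2 WT mice alone differed by 1.60, while the readings of a mouse in the 2 dyes differed by at most 0.38. The high and the low pair of mice thus each held 1 HepKO and 1 WT mouse. Tomm22 was 1 of 8 genes (0.0696% of all genes) with both arrays of a pair above 1 and both of the other pair below -1. By sign alone, 8.46% of all genes showed such a split. The cutoff of 1 was not in the planned design, and the share carries no test. The nearest measured genes in the annotation had smaller values, with -0.42 and 0.38 for Cby1, which has the same signs, and 0.37 and 0.023 for Ddx17 before it, and -0.052 and 0.032 for Josd1 and 0.29 and 0.29 for Gtpbp1 after it (male and female pair). Tomm22 was read by 1 probe, so that no second probe of the gene could be set beside it, and with 1 replicate a pair the difference between the pairs was not tested.

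**Figure D3:**
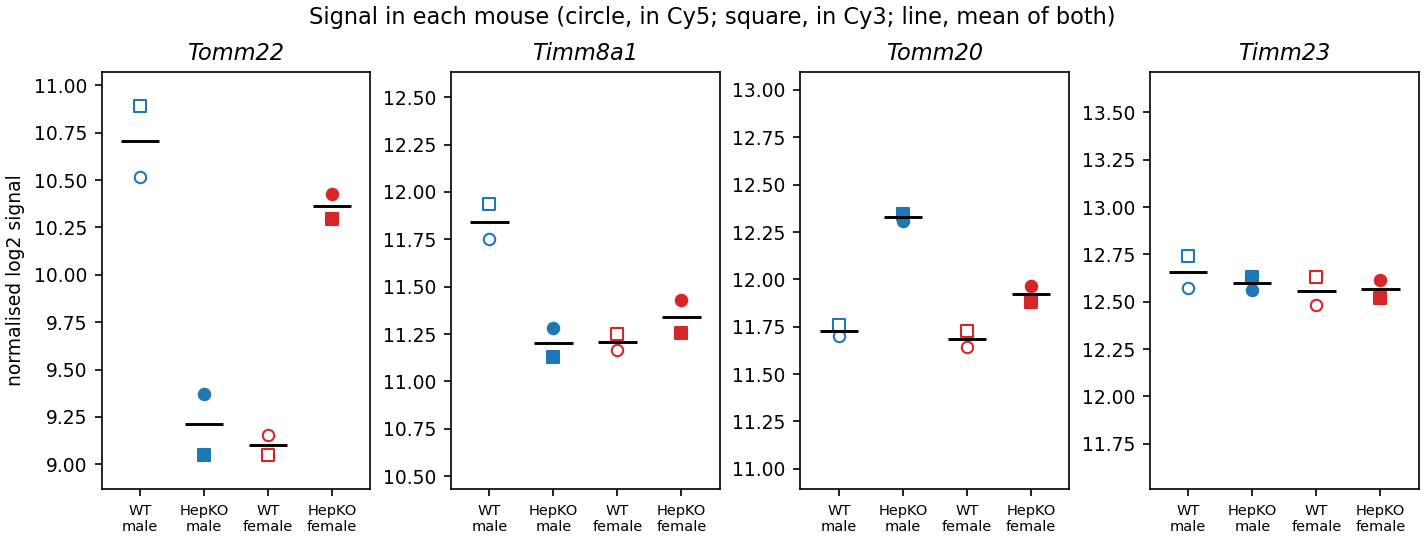
Normalised log2 signal (vertical axis) of 4 translocase genes in each of the 4 mice, with open symbols for WT, filled symbols for HepKO, circles for the reading in Cy5, squares for that in Cy3 and lines for the mean of both. Each panel spans the same range of log2 units, and signals are comparable within a panel only. Tomm22 was high in the male WT and female HepKO mice, and the mean of Timm23 lay between 12.56 and 12.66 in all 4.

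Tomm70a, the receptor for carrier proteins and other clients brought by cytosolic chaperones, was measured by 3 probes that did not share a sign. The brightest, A_51_P324330, had log2 ratios of 0.20 and 0.23 (male pair), then 0.12 and -0.027 (female pair) (mean 0.13 ± 0.15, adjusted p = 0.556, limma). The other probes lay lower, A_51_P520660 at a mean of -0.069 and A_52_P547234 at -0.21, the latter below 0 on all 4 arrays. None of the 3 passed over all probes (adjusted p from 0.320 to 0.732), where the test called 10.3% of 22807 probes. The direction of Tomm70a therefore depends on which probe stands for it.

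Tomm40, the channel through which imported proteins cross the outer membrane, had log2 ratios of -0.093 and -0.042 (male pair), then -0.22 and 0.33 (female pair). The 2 female arrays disagreed in sign, and the mean was -0.0059 ± 0.14 (adjusted p = 0.981, limma), with an interval from -0.40 to 0.39. In fold terms this interval reached from 0.757 to 1.31, so shifts of that size cannot be told from 0 here.

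In the TIM23 complex, Timm50 is the receptor that meets proteins as they leave the TOM channel. Its log2 ratios were 0.28 and 0.20 (male pair), then 0.47 and 0.29 (female pair), with a mean of 0.31 ± 0.15 (adjusted p = 0.210, limma). HepKO was above WT on each array, and the interval of the mean ran from -0.089 to 0.71. Timm23, the channel-forming subunit, varied least across the mice. It had ratios of -0.18 and 0.060 (male pair), then -0.016 and 0.036 (female pair), with a mean of -0.024 ± 0.14 (adjusted p = 0.920, limma). Its normalised log2 signal differed by 0.098 between the highest and the lowest of the 4 mice, the narrowest spread among the probes that stood for the 10 genes. The readings of a mouse in the 2 dyes differed by up to 0.168, more than the mice did.

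Timm17a and Timm17b are paralogs, of which 1 or the other joins Timm23 in the inner membrane translocase, and their ratios lay on opposite sides of 0. Timm17a had log2 ratios of 0.40 and 0.043 (male pair), then 0.28 and 0.36 (female pair) (mean 0.27 ± 0.14, adjusted p = 0.252, limma). Timm17b had -0.32 and -0.75 (male pair), then -0.16 and -0.34 (female pair) (mean -0.39 ± 0.16, adjusted p = 0.163, limma), and its mean was -0.24 over the arrays with HepKO in Cy5 alone. Neither gene passed. On every array Timm17a lay above Timm17b, by 0.72 and 0.79 in the male pair and by 0.44 and 0.70 in the female pair. The signs of both genes fix this order. Of all genes, 39.4% were above 0 and 25.0% below 0 on all 4 arrays. The difference of the log2 ratios, Timm17a minus Timm17b, was 0.66 ± 0.13 (SD, n = 2 pairs), made of 0.75 (male pair) and 0.57 (female pair). It is a difference between ratios, not between levels, and was formed after the values of both genes were known, so it carries no test.

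The separate probes of each paralog lay on the same sides. Both probes of Timm17a were above 0 on all 4 arrays, with means of 0.25 and 0.27 (adjusted p of 0.259 and 0.226 over probes, limma). All 4 probes of Timm17b were below 0 on all 4 arrays, with means of -0.34, -0.39, -0.57 and -0.68. Over these 16 readings Timm17b ranged from -0.88 to -0.089, and over its 8 readings Timm17a ranged from 0.043 to 0.40. The probe of Timm17b farthest from 0, A_52_P238063, read -0.80 and -0.79 (male pair), then -0.60 and -0.53 (female pair) and had an adjusted p of 0.0611. It was also the dimmest, with readings from 1.47 to 4.98 times the local background, where the probe that stood for the gene had 68.5 to 233. Of the 16 probes of the 10 genes, 0 passed after adjustment over probes and 3 had an unadjusted p below 0.05 in that fit (that probe, A_52_P474249 of Timm17b and the probe of Timm44), where 34.0% of all probes did. Probes of 1 gene share the RNA of the same mice and are no added replicates.

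**Figure D4:**
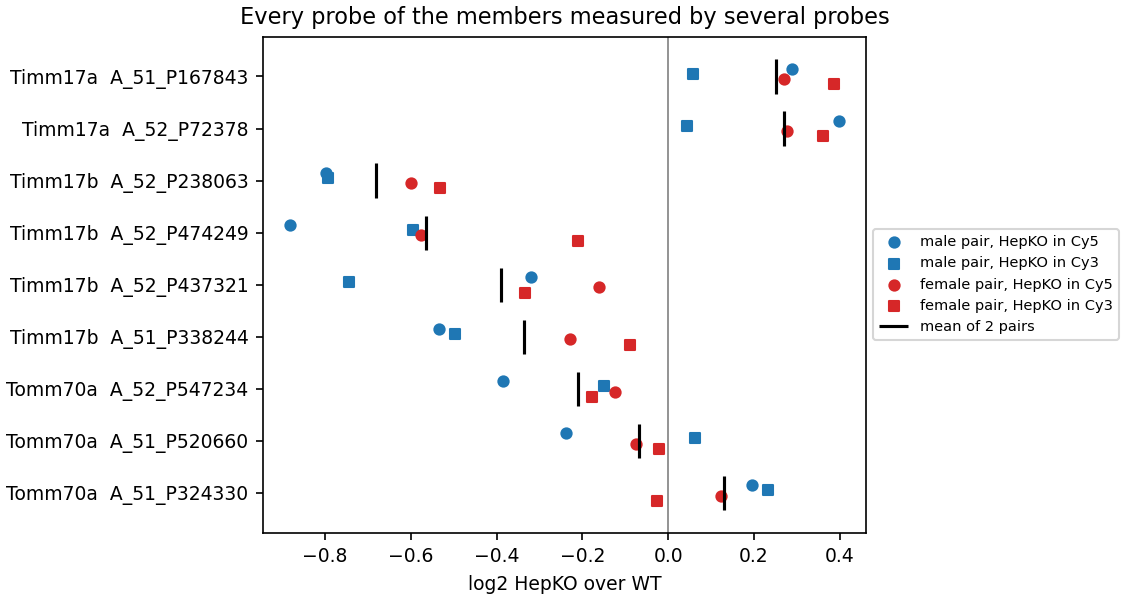
Log2 HepKO over WT (horizontal axis) of every probe of Timm17a, Timm17b and Tomm70a on the 4 arrays, coloured by pair (blue, male; red, female) and shaped by dye (circle, HepKO in Cy5; square, HepKO in Cy3), with black lines for the mean of the 2 pairs. Both Timm17a probes lie above 0 and all 4 Timm17b probes below 0 on every array, while the means of the 3 Tomm70a probes fall on both sides.

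Timm44, which anchors the import motor to the inner membrane channel, had log2 ratios of 0.26 and 0.57 (male pair), then 0.27 and 0.35 (female pair). All 4 arrays were above 0, and the mean was 0.36 ± 0.14 (adjusted p = 0.157, limma), the smallest adjusted p among the 10. The interval ran from -0.030 to 0.76. Its normalised log2 signal was 12.50 in the HepKO and 12.09 in the WT mouse of the male pair, and the female pair had 12.25 and 11.94, so that both HepKO mice lay above both WT mice.

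Timm8a1, the X-linked mouse form of a small chaperone whose human counterpart is mutated in deafness-dystonia syndrome, differed between the pairs. Its log2 ratios were -0.65 and -0.62 (male pair), then 0.18 and 0.086 (female pair), with a mean of -0.25 ± 0.24 (adjusted p = 0.481, limma). HepKO was below WT in the male pair and slightly above it in the female pair. The normalised log2 signal was 11.84 in the male WT mouse and lay between 11.20 and 11.34 in the other 3 mice, so that 1 WT mouse stood above the rest. The difference between the pairs was not tested, because each is 1 replicate.

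The rest of the import pathway was examined through 41 further genes in 7 groups, of which 37 were measured. None passed after adjustment (0 higher and 0 lower, against 15.7% of all genes; limma), and 6 had an unadjusted p below 0.05, where 36.4% of all genes did. Over the alternatives the unadjusted count ran from 3 with median centring (4328 of all genes) to 11 with the random block (5319 of all genes). Of the 37, 12 had a mean above 0 and 25 below, beside 6626 above and 4869 below over all genes. Their median was -0.12 (male pair -0.18, female pair -0.043), beside 0.083 over all genes. Immp1l, Xpnpep3, Hspa9 and Yme1l1 are named below after their values were seen, and the others as the member of each group farthest from 0.

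The group of enzymes that process imported proteins had the lowest median, -0.44. Of its 8 means, 7 were below 0, beside 4869 of the 11495 genes measured. On all 4 arrays 6 of the 8 genes were below 0, beside 25.0% of all genes. None of the 8 passed (limma), and the groups were chosen with earlier results of these data known. Immp2l and Immp1l encode the catalytic subunits of the inner membrane peptidase, which trims sorting signals of proteins of the intermembrane space. Immp2l read -1.21 and -1.32 (male pair), then -0.47 and -0.74 (female pair) (mean -0.94 ± 0.22, adjusted p = 0.0611, limma). Immp1l read -0.51 and -0.86 (male pair), then -0.58 and -0.59 (female pair) (mean -0.63 ± 0.14, adjusted p = 0.0589). Both subunits were thus below WT on every array without passing, and Immp1l was -0.41 (adjusted p = 0.144) with median centring. Each was called without male pair replicate 1, with adjusted p of 0.0469 for Immp2l and 0.0456 for Immp1l (limma). Each was called in 3 of 14 alternatives, and the highest adjusted p was 0.144 for Immp2l and 0.166 for Immp1l. The aminopeptidase Xpnpep3 had a mean of -0.58 ± 0.14 (adjusted p = 0.0693, limma). It was called with the Feature Extraction log ratios, at -1.22 (adjusted p = 0.0339), and was -0.41 (adjusted p = 0.145) with median centring. Of 14 alternatives, 3 called it, which were these log ratios, the authors' value table of the same ratios and the random block. Its readings were dim, at 2.19 to 6.59 times the local background. The intermembrane space protease Yme1l1, known to take part in the import of PNPase itself, had 1 value a pair of -0.50 (male) and 0.092 (female), with both arrays on the same side in each pair (adjusted p = 0.508).

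Among the partners of TIM23 and its motor, Timm21, which links TIM23 to the TOM complex and to respiratory chain assembly, was the farthest from 0 of these and the translocase genes by its mean. It read -1.64 and -1.49 (male pair), then -0.61 and -0.62 (female pair) (mean -1.09 ± 0.27, adjusted p = 0.0714, limma). All 4 arrays were below 0, the male pair farther than the female. Without male pair replicate 1 the gene was called at -1.05 (adjusted p = 0.0498, limma). Timm21 was called in 3 of 14 alternatives, and its highest adjusted p was 0.168. Hspa9, the mitochondrial HSP70 chaperone that drives the motor, had a mean of 0.45 ± 0.14 (adjusted p = 0.112, limma) and was above 0 on all 4 arrays. Its value was 0.11 (adjusted p = 0.651) with median centring, and it was called with the random block (adjusted p = 0.0348). The median of this group of 8 was -0.094.

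The other 5 groups had medians between -0.12 and 0.10. Chchd4, the oxidoreductase that folds proteins in the intermembrane space, had the highest mean of the other import genes, at 0.65 ± 0.16 (adjusted p = 0.0651, limma), with 0.77 and 0.81 (male pair), then 0.61 and 0.43 (female pair). Its ratio was 0.80 and called (adjusted p = 0.0436, limma) when arrays were only median-centred. Chchd4 was called in 2 of 14 alternatives, and its highest adjusted p was 0.167. Timm22, the channel for carrier proteins, had a mean of 0.34 ± 0.15, and 0.20 with the mean of all its probes. The small TOM subunit Tomm7 had -0.30 ± 0.15, which was -0.085 without male pair replicate 2, -0.51 without male pair replicate 1, -0.024 with HepKO in Cy5 alone and -0.57 with HepKO in Cy3 alone. Samm50, which inserts barrel proteins into the outer membrane, had 0.072 ± 0.15, and the outer membrane insertase Mtch1 -0.17 ± 0.15. The group medians were 0.0077 for 4 other TOM genes, -0.040 for 3 genes of outer membrane sorting, -0.12 for 8 genes of TIM22 and the small TIM chaperones, 0.10 for 4 genes of intermembrane space folding and inner membrane insertion, and -0.068 for 2 outer membrane insertases.

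**Figure D5:**
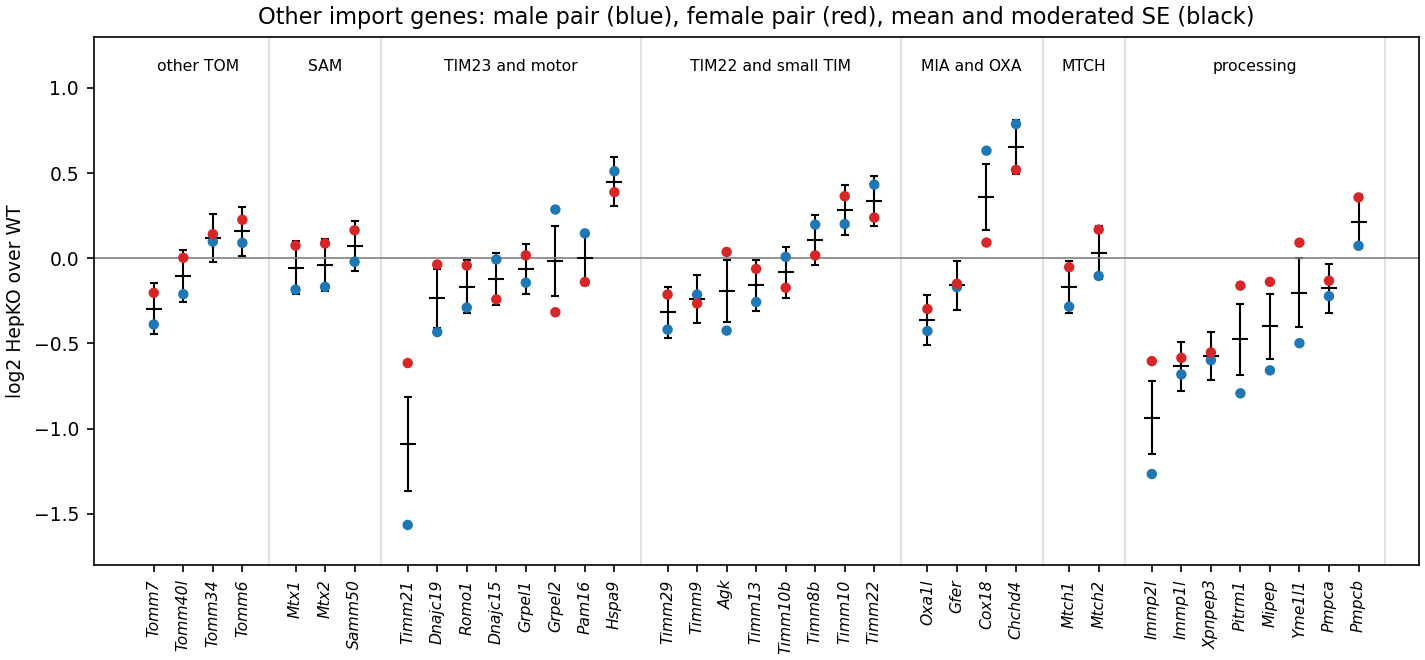
Log2 HepKO over WT (vertical axis) of the 37 other import genes, grouped by complex and ordered by mean within a group. Blue points are the male pair, red points the female pair, and black marks the mean of the 2 pairs with its moderated SE. Timm21 and Immp2l lie lowest and Chchd4 highest.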

How the data were processed

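The deposited spot intensity values, read with Agilent Feature Extraction 10.2.1.3 per the file headers, are unsubtracted mean spot signals with their median local backgrounds. Feature Extraction's own log10 red-to-green ratios, also deposited, were background-subtracted and dye-normalized, per the file headers. A value table from the authors holds the same log10 ratios, with the sign turned where HepKO was in Cy3 (correlation 1 or -1 with each array; column medians 0), so its direction is HepKO over WT. Both log10 sources were alternatives.

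Spots flagged as outliers (178 to 260 of 45018 an array) were left out before background correction (normexp, offset 50) and loess within each array in limma 3.58.1 (R 4.3.3). Control spots (1639) had weight 0, and no spot was saturated. Ratios were turned to HepKO over WT and the 2 dye orientations of a pair averaged. Probes well above background on both arrays of a pair in a genotype were kept (22844 of 41174). RefSeq accessions named 22951 probes, and each gene was read from its brightest kept probe. Levels are log2 channel signals after Aquantile scaling between arrays. The test was a limma intercept on 2 pair values (eBayes, Benjamini-Hochberg over 11495 genes), with 1 residual and 3.12 borrowed degrees of freedom. The number of arrays limits the precision, and labels name no separate cultures beyond the 4 mice.

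Named genes were the 10 members with every probe, Pnpt1, the sex-check genes and, in each other import group, the genes passing the test and the 1 with the largest absolute ratio. Outside this rule, Immp1l, Xpnpep3, Hspa9 and Yme1l1 were named after their values were seen. The members and lists were chosen with earlier results of these data known. The annotation names an older build for the probes, so no probe positions are given. Probe and protein sequences were not used here, and 1 marker gene is not reported here and was left out of its list.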

Additional observations from a re-analysis of the deposited data

Results flagged for a closer look

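Tomm22 and Timm8a1 lay on opposite sides of 0 in the pairs, with both arrays of a pair alike. Tomm22 had a log2 HepKO over WT ratio of -1.49 in the male pair and 1.26 in the female pair. Timm8a1 had -0.64 in the male pair and 0.13 in the female pair. Among the other import genes named in the report, Yme1l1 did the same, with -0.50 in the male pair and 0.092 in the female pair. The difference between the pairs was not tested for any of these genes, because each pair is 1 replicate. Over all genes, 8.46% showed such a split, and 2 of the 10 translocase genes and 6 of the 37 other import genes did.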

How the results depend on the processing

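Over 14 alternatives, 132 of 140 member values kept their sign and 1 was called. Not every value could turn sign, as the random block, a stricter filter on dim probes and no such filter left the member ratios unchanged. The mean of all probes changed only members with several probes. The Feature Extraction log ratios and the authors' value table are the same ratios, counted as separate alternatives. The count of changed genes, 1805, was 0 with normexp fitted on all spots (limma; adjusted p at least 0.0708, with 3020 genes below 0.05 before adjustment), 0 without the filter on dim probes (0.0689 and 4638) and 4079 with the 4 arrays and the pair as a random block, and ran from 1122 to 2144 when 1 array was left out. The count of changed members stayed 0 in each but the random block, where it was 1 (Tomm20). The count of other changed import genes was 1 with the Feature Extraction log ratios, the authors' value table or median centring, 3 with HepKO in Cy3 alone, 6 with the random block and 0 to 3 when 1 array was left out. The median of the members was -0.015 with the mean of all probes of a gene. Signs of genes near 0 turned: with median centring Tomm22 was 0.036, Tomm40 0.16 and Samm50 -0.086, with the mean of all probes Tomm70a was -0.049, with HepKO in Cy5 alone Samm50 was -0.15 and Mtch1 0.10, and with HepKO in Cy3 alone Tomm40 was 0.14 and Timm23 0.048. When 1 array was left out, Tomm40 ran from -0.14 to 0.13, Timm23 from -0.083 to 0.035, Samm50 from -0.060 to 0.20 and Mtch1 from -0.34 to 0.0037. The cause was not tested. The main test already used ratios taken within a pair, so no further paired analysis was run. A pair left with 1 array has no dye swap. The dimmest reading of the probes that stood for the members, for Tomm22, was 9.60 times the local background.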
